A study of Bos taurus with 3 samples.

Results

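Among the rumen cells of 3 newborn (NB) calves, 77 carried a transcript of ENSBTAG00000055197, the bovine homolog of the T-cell receptor delta constant region gene TRDC, together with a transcript of an immune gene, and are called TRDC-homolog cells here. They were chosen by their own counts of unique molecular identifiers (UMIs, one per captured RNA molecule): at least 1 UMI of the TRDC homolog, at least 1 UMI of CD3E, PTPRC or CD52, fewer than 10 UMIs per 10000 of the keratins KRT5, KRT14 and KRT15 summed, and fewer than 30 per 10000 of the class II gene BOLA-DRA. The 77 were 0.296% of the 26020 barcodes that passed the filters on genes, UMIs and mitochondrial share. They were set beside the 120 CD3E cells that met the same keratin and BOLA-DRA limits and had no UMI of the TRDC homolog.

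The calves were Holstein, were sampled 1 day after birth from the ventral rumen sac, and carried no treatment or engineered allele. Each calf gave 1 droplet library (Chromium Single Cell 3′, version 3), and the calf is the replicate. The tissue was freed of muscle, digested with EDTA, trypsin and a mix of collagenases, dispase, hyaluronidase and DNase I and was not sorted for immune cells. No adult sample was analysed here. Calves 1, 2 and 3 gave 7529, 12043 and 11656 barcodes, of which 4886, 10654 and 10480 were kept, and 82263092, 89803289 and 106145091 UMIs.

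γδ T cells carry a receptor built from a gamma and a delta chain, held at the surface by the CD3 proteins, in place of the alpha and beta chains of conventional T cells. They are abundant in young cattle and other ruminants and settle in epithelia, where some make interleukin 17 and others kill stressed or infected cells. In cattle, many circulating γδ T cells also carry WC1, a family of scavenger receptors related to CD163. Transcripts of the delta constant region alone do not mark a rearranged receptor, and natural killer cells and other innate lymphocytes can contain them too.

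The TRDC-homolog cells came almost entirely from 1 calf. Calf 1 gave 1 cell, calf 2 gave 6 and calf 3 gave 70, which was 90.9% of the 77. Of the kept barcodes, the single cell of calf 1 was 0.0205% (exact 95% binomial interval from 0.000518 to 0.114). The 6 cells of calf 2 were 0.0563% (0.0207 to 0.123), and the 70 of calf 3 were 0.668% (0.521 to 0.843). The interval of calf 3 lay above those of the other calves. The intervals cover counting error only, and what set the difference between the calves was not tested. The CD3E cells without the homolog followed the same order, with 0, 11 and 109 cells. TRDC-homolog cells therefore made up a similar part of both classes in calves 2 and 3, at 35.3% (14.2 to 61.7) of 17 cells and 39.1% (31.9 to 46.7) of 179 cells. One of the 77 barcode sequences also occurred among the kept barcodes of another calf, and the libraries shared 11, 20 and 30 kept barcodes in pairs.

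Only a part of these cells carried CD3E, the CD3 epsilon chain that every surface T-cell receptor needs. A CD3E UMI was found in 39 of the 77 cells, 0 of 1 in calf 1, 2 of 6 in calf 2 and 37 of 70 in calf 3. CD52, a small surface glycoprotein of lymphocytes, was found in all 77, and PTPRC, the leukocyte phosphatase CD45, in 51. These genes chose the cells, so their counts are a description. Restricted to cells with a CD3E UMI, the TRDC homolog was present in 2 of 13 CD3E cells of calf 2 (15.4%) and 37 of 146 of calf 3 (25.3%). The label γδ T cell was not borne out for all of the 77. Of the 38 CD3E- cells, 29 carried FCER1G, among them a barcode with endothelial genes. The 9 without it included a barcode with plasma-cell genes. They also included cells with many TRDC-homolog UMIs and IL17F, which do not go against the label. The 77 are therefore called by their rule throughout. The split by CD3E was made after the values were seen, so the differences across it are given without a test.

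The homolog itself was sparse in the CD3E- cells. The 77 cells had a median of 3 TRDC-homolog UMIs (range 1 to 30), and 26 of them rested on a single UMI. The CD3E+ cells had a median of 6 (1 to 30), and 29 of the 39 had 3 or more. The CD3E- cells had a median of 1 (1 to 15), 20 of the 38 had exactly 1, and 12 had 3 or more. The medians ran the same way in both calves that had both kinds of cell, at 8 and 1.5 UMIs in calf 2 and 6 and 1 in calf 3. Sequencing depth moved with the split, since the median total was 3820 UMIs in CD3E+ cells and 2895.5 in CD3E- cells, against 2797 in the CD3E cells without the homolog, and its part in the difference was not tested. Expressed as a level, the homolog stood at 20.0 UMIs per 10000 in the CD3E+ cells and 7.10 in the CD3E- cells.

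**Figure D1:**
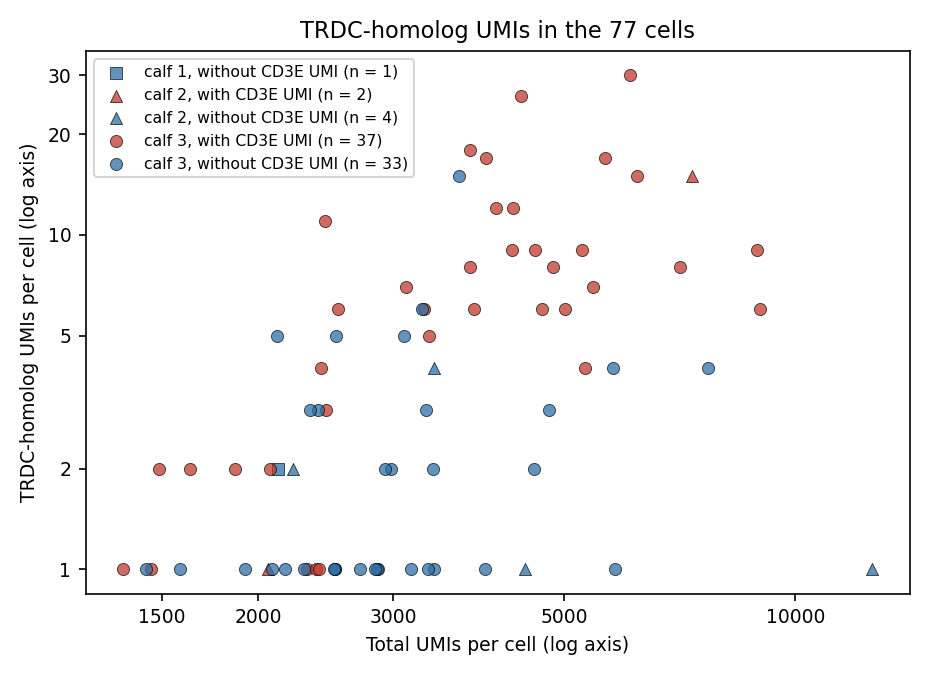
UMIs of the TRDC homolog in each of the 77 cells (vertical, log axis) against the cell's total UMIs (horizontal, log axis), with CD3E+ cells in red and CD3E- cells in blue and a symbol for each calf. The 26 cells with a single UMI lie along the bottom, and 20 of them are CD3E- cells; the highest cell has 30.

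The homolog was also measured in barcodes outside the limits. Among the 23625 kept barcodes over the keratin limit, which are mostly epithelial cells, 66 (0.279%, 0.216 to 0.355) had a UMI of it, and 0.127% did once each barcode was thinned at random to 2000 UMIs. These barcodes were deeper, with a median of 7741 UMIs. Among the 408 barcodes over the BOLA-DRA limit, 20 had one (4.90%, and 2.26% after thinning), at a median depth of 6661.5 UMIs. The keratin-high barcodes are not a clean background. Of those under the BOLA-DRA limit, 47 had the homolog with an immune gene and 28 of these had CD3E. No level of free RNA was therefore taken from these shares, and the 20 cells with a single UMI and no CD3E rest on little evidence. At the edges of the rule, the highest keratin sum inside was 9.71 per 10000 and the lowest outside 10.1. For BOLA-DRA the highest level inside was 29.7 and the lowest outside 88.1.

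Several transcripts of the T-cell receptor complex and its signalling followed CD3E. CD3D, the delta chain of CD3, had a UMI in 24 of 39 CD3E+ cells (61.5%, 44.6 to 76.6) and in 2 of 38 CD3E- cells (5.26%, 0.644 to 17.7). In the CD3E cells without the homolog it was found in 64 of 120 (53.3%, 44.0 to 62.5). ZAP70, the kinase that docks on the activated receptor, was found in 22, 1 and 33 cells of the same 3 classes. CD5, a receptor that dampens T-cell receptor signals, was found in 14, 0 and 31 cells. The adaptor LAT was found in 19, 5 and 48 cells. CD247, the zeta chain, which also serves activating receptors of natural killer cells, followed it less closely, with a UMI in 24 CD3E+ and 13 CD3E- cells. The adaptor SH2D1A, on the same gene list, went the other way and is given with the genes of the CD3E- cells.

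Other T-cell genes were infrequent in the CD3E+ cells. CD2, an adhesion receptor, had a UMI in 3 of 39 CD3E+ cells (7.69%, 1.62 to 20.9) against 45 of 120 CD3E cells without the homolog (37.5%, 28.8 to 46.8). LCK, the kinase that starts receptor signalling, was found in 4 of 39 (10.3%, 2.87 to 24.2) against 67 of 120 (55.8%, 46.5 to 64.9). Its low level was not shared by the CD3E- cells to the same degree. In the sums per calf its log2 difference was -1.51 over all TRDC-homolog cells and -3.14 with CD3E required. The latter setting was chosen after the data were seen, and neither value passed the threshold. CD28, which gives the second signal in conventional T cells, was found in none of the 77 and in 2 of the 120. The coreceptor CD4 was found in 0 of 77 cells, a count that still permits up to 3.90% of cells with a UMI, and in 18 of the 120. CD8A was found in 1 and 31 cells, and CD8B in 5 and 36. A coreceptor transcript of any of these 3 genes was present in 6 of the 77 cells and 70 of the 120.

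Of 18 listed genes of γδ T-cell identity, 14 were in the annotation and 12 had a UMI in the 77 cells, the homolog that chose the cells being among them. BLK, a Src-family kinase, had a UMI in 25 of 39 CD3E+ cells (64.1%, 47.2 to 78.8), 1 of 38 CD3E- cells and 5 of the 120 compared cells. SOX4, a transcription factor, was found in 13, 6 and 4 cells, and SOX13, a γδ lineage factor, in 3, 0 and 0 cells. GATA3 was found in 21, 8 and 36 cells, and ID3, an inhibitor of E proteins, in 14, 6 and 13. The zinc finger factor ZBTB16 was found in 4, 5 and 21 cells. MAF and BCL11B, at 0 in the 77 cells, were themselves rare in the compared cells, with 3 and 6 of 120.

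RHEX, a regulator of erythroid expansion by its name, was singled out after its values were seen. It had a UMI in 24 of 39 CD3E+ cells (61.5%, 44.6 to 76.6), 1 of 38 CD3E- cells and 1 of 120 compared cells. It was not present in CD3E+ cells alone, since 19 of 408 barcodes over the BOLA-DRA limit (4.66%) had a UMI of it. RHEX and BLK occurred together in 21 of the 77 cells. Neither was found in any of the 7 cells of calves 1 and 2, so both rest on calf 3.

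WC1 transcripts were few and lay in CD3E+ cells. WC1 had a UMI in 7 cells, WC1-12 in 3 and CD163L1, a member of the same scavenger receptor family, in 5. Any of these was present in 13 cells, all of them CD3E+ and from calf 3. In the 120 compared cells the numbers were 0, 0 and 1. WC1 genes are near copies of each other, so reads may be split between them or lost in the counting. WC1 and WC1-12 were named after their values were seen.

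**Figure D2:**
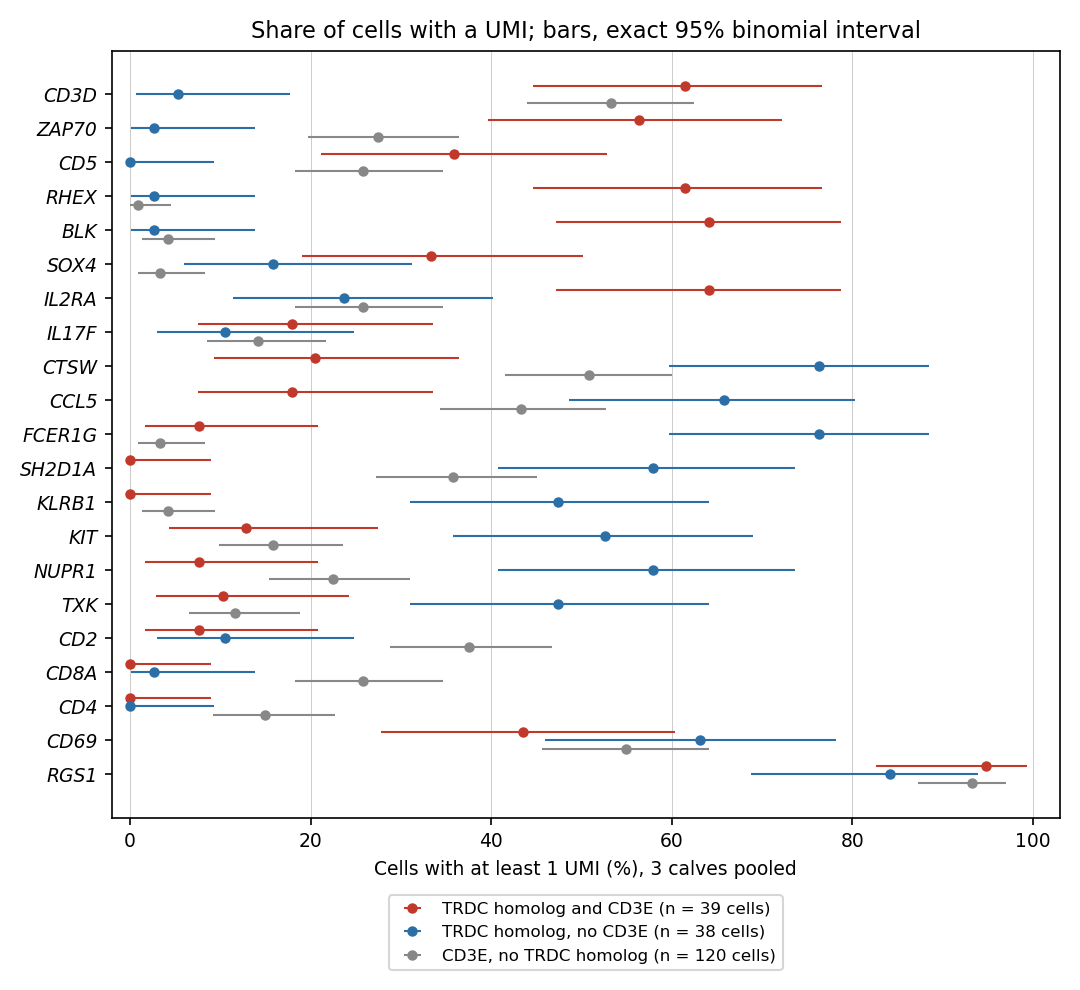
Share of cells with at least 1 UMI of each named gene (horizontal, percent, all calves pooled) in the 39 CD3E+ TRDC-homolog cells (red), the 38 CD3E- TRDC-homolog cells (blue) and the 120 CD3E cells without the homolog (grey); bars are exact 95% binomial intervals, which cover counting error only. RHEX and BLK are high in red alone, at 61.5% and 64.1%, and FCER1G and KLRB1 in blue alone, at 76.3% and 47.4%.

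A different set of transcripts marked the CD3E- cells. FCER1G, the signalling chain of Fc and natural killer receptors, had a UMI in 29 of 38 (76.3%, 59.8 to 88.6), in 3 of 39 CD3E+ cells and in 4 of 120 compared cells. KLRB1, the lectin receptor CD161, was found in 18, 0 and 5 cells. KLRF1, a natural killer receptor, was found in 8, 0 and 0 cells. NCR3, another natural killer marker, was not confined to the CD3E- cells and had UMIs in CD3E+ cells too. SH2D1A, the adaptor SAP of natural killer and T cells, was found in 22, 0 and 43 cells. KIT, the stem cell factor receptor that innate lymphoid cells retain, was found in 20, 5 and 19 cells, and EOMES, a transcription factor of natural killer and effector T cells, in 8, 1 and 7. TXK, a Tec-family kinase, and NUPR1, a stress-response factor, both named after their values were seen, were found in 18 and 22 of the 38 cells, in 4 and 3 of the 39 and in 14 and 27 of the 120. FCER1G was present in all 5 CD3E- cells of calves 1 and 2 and in 24 of the 33 of calf 3.

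Most of these genes were rare in the keratin-high barcodes. A FCER1G UMI was found in 2.43% of the barcodes over the keratin limit and 0.80% after thinning, against 31.9% of the 69 TRDC-homolog cells deep enough to be thinned. KLRB1 was found in 0.0762% of those barcodes, KIT in 0.271% and RHEX in 0.0762%. NUPR1 was found in 10.7%. FCER1G is also a myeloid gene, present in 90.2% of the barcodes over the BOLA-DRA limit, while KLRB1 was found in 0 of these 408.

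The same genes were counted in 21 other cells of calf 3 that had CTSW but neither CD3E nor the homolog. Of those 21, FCER1G was found in 14 (66.7%), KLRB1 in 13 (61.9%), SH2D1A in 14 and KIT in 5. CCL5 and NUPR1 were found in 18 each (85.7%) and EOMES in 8 (38.1%), and RHEX and BLK in 0, which permits up to 14.3%. No test was made between these cells and the CD3E- cells. RHEX with BLK and FCER1G with KLRB1 were paired after their values were seen, so their separation is a description that follows partly from that choice. Other genes of the CD3E- cells, among them CTSW, CCL5 and KIT, also occurred in CD3E+ cells, while SH2D1A and KLRF1 did not. RHEX or BLK without FCER1G or KLRB1 was found in 29 of the 77 cells, of which 27 were CD3E+, with a median of 7 TRDC-homolog UMIs. FCER1G or KLRB1 without RHEX or BLK was found in 32 cells, of which 2 were CD3E+, with a median of 1. One cell had genes of both pairs, and 15 had neither.

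**Figure D3:**
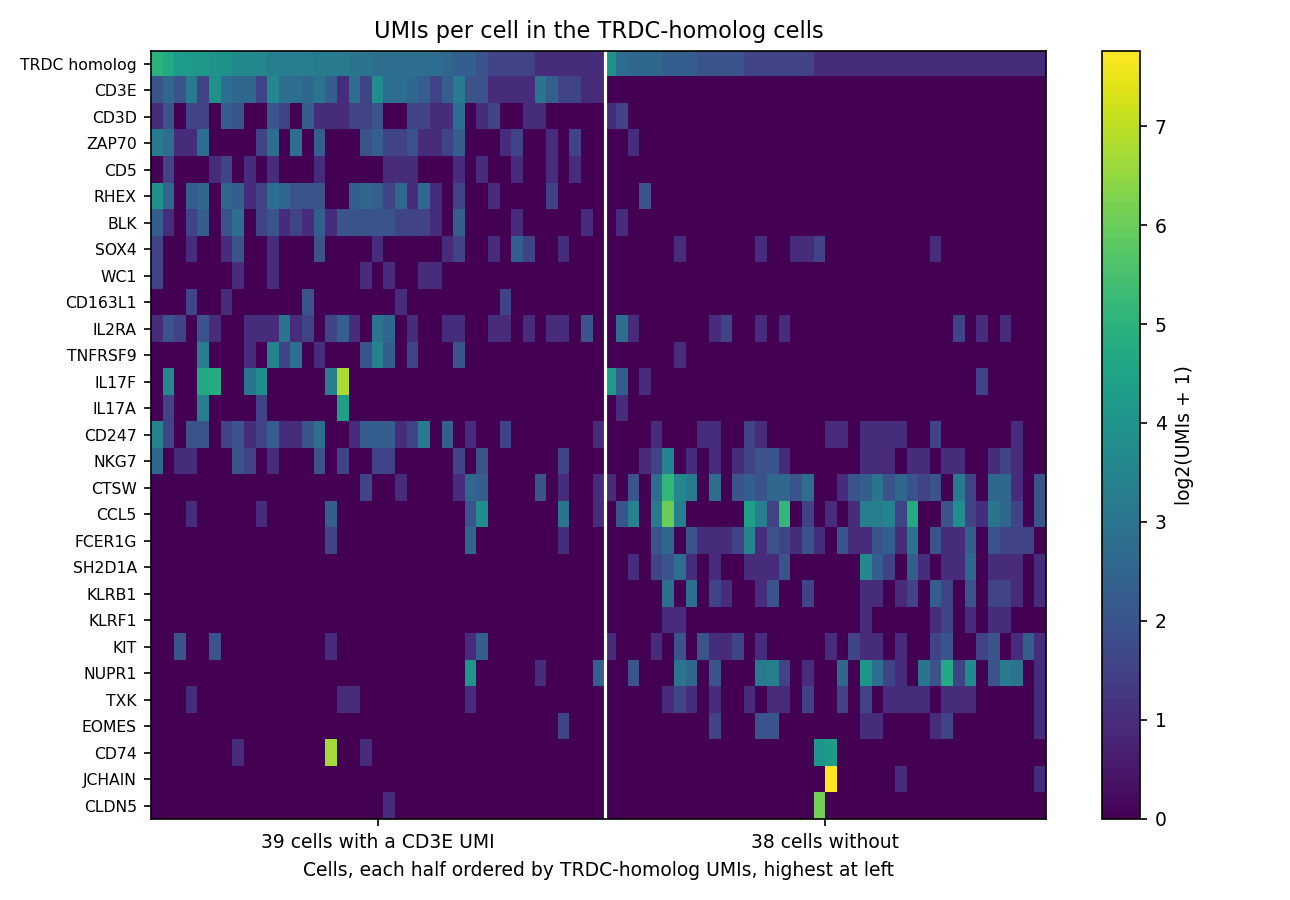
UMIs of 29 genes in each TRDC-homolog cell (columns), coloured by log2(UMIs + 1), with the 39 CD3E+ cells at left and the 38 CD3E- cells at right, each ordered from the most to the fewest TRDC-homolog UMIs. RHEX and BLK lie mostly in the left block, and CTSW, FCER1G and KLRB1 mostly in the right. Bright squares of CD74 mark 3 barcodes with genes of other cell types, and JCHAIN and CLDN5 are each bright in 1 of these.

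The remaining marker genes of the label, CTSW and IL17F, did not pass a test between the classes. CTSW, a cathepsin of cytotoxic lymphocytes, had a UMI in 37 of the 77 cells (48.1%, 36.5 to 59.7) and in 61 of the 120 (50.8%, 41.6 to 60.1). Within the 77 it was uneven, with 29 of 38 CD3E- cells (76.3%) and 8 of 39 CD3E+ cells (20.5%). In the sums per calf its level was 4.70 UMIs per 10000 in calf 2 and 5.99 in calf 3, against 12.3 and 5.51 in the compared cells. By edgeR's quasi-likelihood test the log2 difference was -0.56 (SE 0.46, adjusted p = 1.00, n = 2 calves).

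IL17F, an interleukin 17 family cytokine, had a UMI in 11 of 77 cells (14.3%, 7.35 to 24.1) and 17 of 120 (14.2%, 8.47 to 21.7). The 11 cells were 0 of 1, 1 of 6 and 10 of 70 in calves 1, 2 and 3. Its log2 difference between the classes was 0.15 (SE 0.48, adjusted p = 1.00 by edgeR, n = 2 calves). The transcript was concentrated in few cells, since 1 cell held 112 of the 231 UMIs and 3 cells held 71.4% of them. Cells with IL17F had many TRDC-homolog UMIs, with a median of 11 against 2 in the other 66, and 10 of the 11 had at least 5. CTSW was found in 1 of the 11 and 36 of the 66. CD3E was found in 7 of the 11, so that 4 of the IL17F cells were CD3E-, with 1 to 15 homolog UMIs and neither FCER1G nor KLRB1. IL17A had a UMI in 5 cells, all of them with IL17F, and IL22 in none of the 77 and 3 of the 120. Of the receptors and regulators of this list, RORA was found in 9 and 12 cells, IL23R in 2 and 0 and CCR6 in 1 and 3.

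The cytotoxic list summed to 65.1 UMIs per 10000 in CD3E+ cells, 57.0 in CD3E- cells and 48.8 in the compared cells, and its genes differed in where they were found. SRGN, the proteoglycan core of cytotoxic granules, was found in all 77 cells and stood at 59.4 UMIs per 10000 in the CD3E+ cells, 23.9 in the CD3E- cells and 33.0 in the compared cells. SRGN thus made up most of the list sum of the CD3E+ cells, and the order of the 3 sums rests on this gene. The rest of the list was lowest in the CD3E+ cells. NKG7 was found in 20 CD3E- cells, 13 CD3E+ cells and 42 compared cells, and perforin, PRF1, in 12, 6 and 35. The activating receptor KLRK1 was found in 13, 4 and 20 cells. Granzyme B, GZMB, was found in 2 of the 77 and 22 of the 120. Of the type 1 list, interferon gamma, IFNG, was found in 2 of the 77 and 19 of the 120, and the chemokine CCL4 in 4 and 26. The chemokine CCL5 was found in 25 of 38 CD3E- cells (65.8%, 48.6 to 80.4), 7 of 39 CD3E+ cells and 52 of 120 compared cells.

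Most cells carried transcripts of retention and homing genes. RGS1, which dampens chemokine receptor signals, was found in 69 of the 77 cells (89.6%) and 112 of the 120 (93.3%). CXCR4, a chemokine receptor, was found in 73 (94.8%) and 101 (84.2%), and CD69, which holds lymphocytes in tissue, in 41 and 66. Integrin alpha E, ITGAE, which binds epithelial E-cadherin, was found in 6 and 9, and the chemokine receptor CXCR6 in 17 and 57. The interleukin 7 receptor IL7R was found in 57 and 96, and ID2, a factor of innate lymphocytes and resident T cells, in 62 and 99, but ID2 was also found in 37.3% of barcodes over the keratin limit.

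The activation and costimulation list summed to 31.6 UMIs per 10000 in CD3E+ cells, 29.9 in CD3E- cells and 40.5 in the compared cells, with single genes spread unevenly. IL2RA, the high-affinity interleukin 2 receptor chain, was found in 25 of 39 CD3E+ cells (64.1%, 47.2 to 78.8), 9 of 38 CD3E- cells and 31 of 120 compared cells. The costimulator TNFRSF9 was found in 11, 1 and 19 cells. The checkpoint receptors LAG3 and PDCD1 were found in 14 and 12 CD3E+ cells, in 1 CD3E- cell each, and in 35 and 34 compared cells. CTLA4 and CD40LG were found in 0 of the 77 cells, again permitting up to 3.90%, and in 18 and 10 of the 120. TCF7, a factor of naive and memory lymphocytes, was spread evenly, with 16 CD3E+ and 19 CD3E- cells, against 13 of the 120. MKI67, a gene of cycling cells, was found in 5 of 77 and 18 of 120. The proliferation list of 14 genes summed to 18.6 UMIs per 10000 in the TRDC-homolog cells and 27.9 in the compared cells. The calves differed in direction, with 56.5 against 43.7 in calf 2 and 13.7 against 26.1 in calf 3. How many cells were cycling was not tested.

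The highest levels belonged to genes shared by lymphocytes. After ribosomal, mitochondrial, housekeeping and uncharacterised genes were set aside, B2M, the light chain of class I molecules, led with 117 UMIs per 10000, against 125 in the compared cells. BOLA stood at 75.5 and 92.5, and SRGN at 43.3 and 33.0. JUN, an immediate-early transcription factor, stood at 22.9 and 23.0, and the heat-shock genes HSP90AA1 at 26.9 and 28.7 and HSPA1A at 13.4 and 21.4. All 15 genes of the immediate-early and heat-shock list were detected in both classes.

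Several uncharacterised genes, which the files give as identifiers with no name, stood apart between the classes. ENSBTAG00000000144 was found in 39 of 39 CD3E+ cells, 26 of 38 CD3E- cells and 39 of 120 compared cells, and ENSBTAG00000050953 in 27, 1 and 0. In the other direction, ENSBTAG00000010828 was found in 0 of 77 cells and 36 of 120, and ENSBTAG00000027204 in 52 and 107. These were chosen after their values were seen.

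To ask which genes differed between the classes beyond the spread between calves, UMIs were summed per calf and class and compared by edgeR's quasi-likelihood test with calf as a block. Only calves 2 and 3 had 5 cells of both classes, which left 4 sums and 1 residual degree of freedom. The sum of the 6 cells of calf 2 held 32049 UMIs and that of the 70 cells of calf 3 held 251825. Of 1933 genes tested, 1 passed an adjusted p of 0.05, which is 0.0517%, and 47 had an unadjusted p under 0.05. DESeq2 called 0, with 8 under an unadjusted 0.05. The median log2 difference of all genes tested was -0.02. Fewer cells of a kind and less RNA per cell cannot be told apart in such sums.

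The gene that passed was CD74, the class II invariant chain of antigen-presenting cells. It had 16 UMIs in the TRDC-homolog cells of calf 2 and 122 in those of calf 3, against 0 and 14 in the compared cells, a log2 difference of 4.11 (SE 0.61, adjusted p = 0.00478 by edgeR, n = 2 calves). Of the 138 UMIs, 102 lay in 1 barcode of calf 3, the one with 29.7 UMIs of BOLA-DRA per 10000, which was also among the 3 TRDC-homolog barcodes called doublets. All 16 of calf 2 lay in 1 barcode of 12593 UMIs that had 70 UMIs of CLDN5 and 20 of PECAM1, both endothelial, and a single UMI of the homolog. One more barcode, from calf 3, held 18, with 216 of the 218 UMIs of JCHAIN and 36 of MZB1, genes of plasma cells. Without the doublet calls the difference in CD74 was 2.35 and did not pass (adjusted p = 1.00 by edgeR).

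No gene of the T-cell, γδ, type 17, type 1, cytotoxic, homing or activation lists passed the test. The innate gene FCER1G had 8 and 72 UMIs in the TRDC-homolog cells of calves 2 and 3 against 4 and 2 in the compared cells, a log2 difference of 3.62 (SE 0.88, adjusted p = 0.218 by edgeR). KLRB1 had 6 and 33 UMIs against 2 and 3, a difference of 3.25 (SE 0.79, adjusted p = 0.218 by edgeR). CD8A had 0 and 1 against 3 and 40, a difference of -4.63 (SE 1.09, adjusted p = 0.218 by edgeR). SOX4 had 3 and 26 against 0 and 4, at 3.37 (SE 0.87, adjusted p = 0.269 by edgeR). The sums of BLK ran in opposite directions in the calves, with 0 UMIs against 3 in calf 2 and 63 against 6 in calf 3. None of these differences passed in this fit. FCER1G passed in 4 other settings: with library totals (adjusted p = 0.0417 by edgeR), with no filter on low counts (adjusted p = 0.00141 by edgeR), and in 2 settings chosen after the data were seen, 2 homolog UMIs required and barcodes with over 10 CD74 UMIs left out. KLRB1, CD8A and BLK passed in the last of these only. FCER1G did not pass with DESeq2, with median-ratio size factors, without the block, without doublet calls or after thinning.

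**Figure D4:**
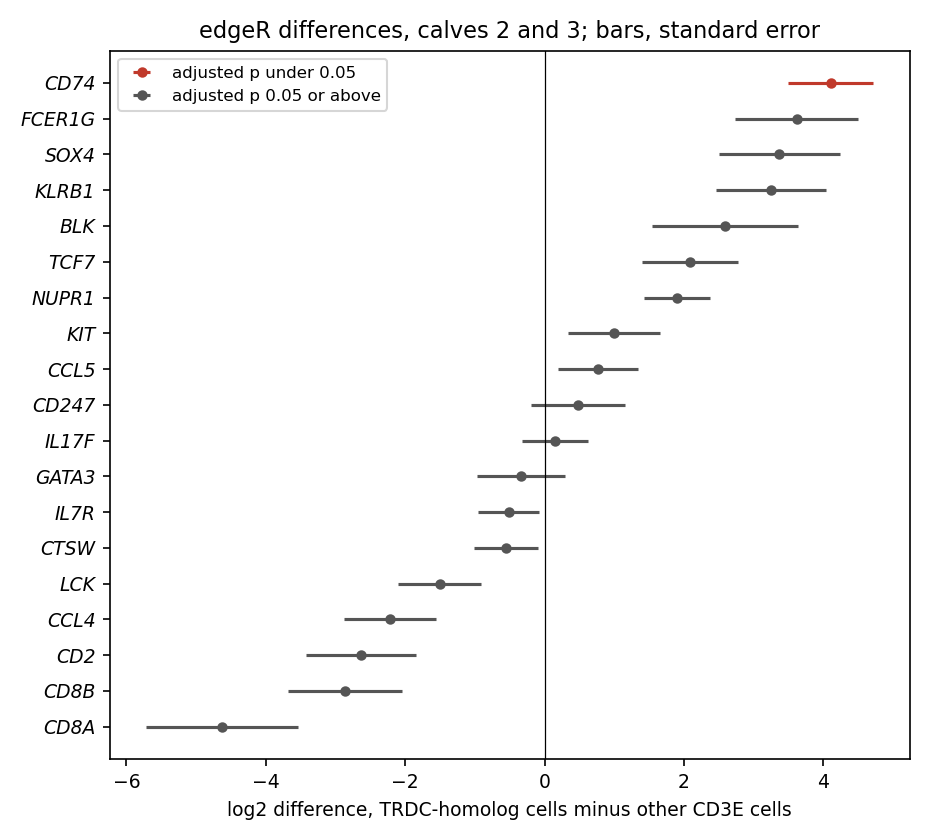
Log2 difference of 19 named genes between the TRDC-homolog cells and the CD3E cells without the homolog (horizontal; positive is higher in TRDC-homolog cells), from sums of calves 2 and 3; bars are the standard error. CD74, in red, alone has an adjusted p under 0.05; CD8A lies furthest to the left at -4.63.

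Medians by list are set partly by the choice of cells, since every compared cell and only 39 of the 77 had CD3E. The T-cell receptor list summed to 31.8 UMIs per 10000 in CD3E+ cells, 13.5 in CD3E- cells and 30.3 in the compared cells, and the type 17 list to 20.6, 5.87 and 13.4. A single CD3E+ cell, with 112 UMIs of IL17F, gave a large part of the type 17 sum of the CD3E+ cells. Of the 10 T-cell receptor genes tested, 0 passed, 4 were positive and the median log2 difference was -0.41. The 7 γδ identity genes had a median of -0.28, the 6 type 17 genes -0.46, the 8 cytotoxic genes -0.34, the 10 homing genes -0.51 and the 13 activation genes -0.57. The 3 αβ lineage genes had a median of -2.87, which is the value of CD8B. Of the 3, 2 were negative and TCF7 was positive, at 2.09. Markers of other cell types were present in both classes. The B and plasma cell list summed to 0 and 11.6 UMIs per 10000 in the TRDC-homolog cells of calves 2 and 3, against 0.737 and 0.382 in the compared cells, and in calf 3 nearly all of it was the JCHAIN of 1 barcode and the 63 UMIs of BLK, which this list shares with the γδ list. The myeloid list summed to 10.9 and 14.0 against 1.96 and 2.67. A UMI of 9 of its 15 annotated genes was found in the 77 cells, and LYZ and CD14 were at 0. Both genes tested were positive, CD74 and CST3 (log2 difference 1.44, not past the threshold). In calf 2, CST3 ran the other way, at 0.94 UMIs per 10000 against 1.48 in the compared cells. Its log2 difference was 0.32 when the 3 barcodes with over 10 CD74 UMIs were left out. The endothelial and fibroblast list summed to 36.8 and 1.11 against 1.47 and 5.84, with the CLDN5 barcode giving most of the sum of calf 2, and the epithelial list to 9.36 and 5.72 against 9.08 and 6.27. An exclusion chosen after the data were seen left out the 3 barcodes with over 10 CD74 UMIs. RHEX was then found in 24 of 38 CD3E+ cells and FCER1G in 28 of 36 CD3E- cells. Only 3 of the 77 cells were left out, so these shares could move little.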

How the data were processed

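Rumen cells of 3 newborn calves were profiled with 1 library per calf. The authors deposited, for each calf, raw UMI counts per gene and barcode over 27270 genes from Cell Ranger 3.1.0 with the ARS-UCD1.2 genome, not normalised and before their quality filters; 0 further sample columns were left unused. Depth was 82263092, 89803289 and 106145091 UMIs in calves 1, 2 and 3. Barcodes with 500 to 4000 genes, at most 50000 UMIs and at most 40% of UMIs in the 13 mitochondrial coding genes were kept. No doublets were removed, since the rule has no such step; barcodes with the highest simulated-doublet scores (scrublet in scanpy 1.11.5, 0.8% per 1000 barcodes) were removed as an alternative. The cells and gene lists were chosen with earlier results of these data known.

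Levels are UMIs per 10000 of the summed cells. Shares carry exact 95% binomial (Clopper-Pearson) intervals, which cover counting error only, and a count of 0 was given the limit that 3 counts allow. Thinned shares use cells of at least 2000 UMIs drawn down to 2000, which left 34 CD3E+, 35 CD3E- and 100 compared cells. Counts were summed per calf and class, filtered with filterByExpr, TMM-normalised and tested with edgeR 4.0.16 (glmQLFit, glmQLFTest) in R 4.3.3, with calf as a block because both sums come from the same animal, and Benjamini-Hochberg adjustment at 0.05; DESeq2 1.42.0 was an alternative. The SE is the absolute log2 difference over the square root of the F statistic. The 8 genes of the rule were left out of the test. The fit was tested on simulated data. Named genes were the markers and rule genes, list genes with a UMI in at least 10 cells of a class or at 0 in the TRDC-homolog cells, genes past the threshold, and the 20 with the highest level. A few list genes found in fewer cells are also given, among them SOX13, EOMES, IL23R, CCR6 and ITGAE. Other genes compared between the classes are said to be chosen after their values were seen. Identifiers were used as the files pair them with symbols. Counts of 1 listed gene are not reported here.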

Additional observations from a re-analysis of the deposited data

Results flagged for a closer look

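Cells with the TRDC homolog were also found in barcodes that the comparisons did not use. With fewer than 500 genes, 4 barcodes of calf 3 and 1 of calf 2 had UMIs of both the homolog and CD3E, and with more than 4000 genes 2 barcodes of calf 3 did. Over the keratin limit and under the BOLA-DRA limit, 47 kept barcodes had the homolog and an immune gene. Their median keratin sum was 22.7 UMIs per 10000, and 4 of them in calf 2 and 24 in calf 3 also had CD3E. Of the 47, RHEX or BLK was found in 18 and FCER1G or KLRB1 in 22, with both in 1. The keratin sum was under 50 in 30 of the 47 and reached 167. Whether these barcodes held 1 cell or more was not tested.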

How the results depend on the processing

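The number of TRDC-homolog cells was 51 with at least 2 UMIs of the homolog, 39 with CD3E required and 47 with keratins under 5 and BOLA-DRA under 10 per 10000, and 7 to 76 when each calf was left out, the lowest without calf 3. Their share of both classes was 29.8% and 24.5% under the former 2 settings and 38.8% to 39.4% when each calf was left out; the share was 41.6% with the stricter keratin and BOLA-DRA limits and 38.1% without doublet calls or CD74-high barcodes. Without calf 3, 6 of 8 gene shares left their intervals, RHEX and BLK at 0, and thinning to 1000 UMIs moved 5.

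Of 15 settings of the fit, 12 gave a count. Against 1 gene, DESeq2 called 0 (8 unadjusted), library totals 4, no filter on low counts 12, no replicate block 0 (25 unadjusted), removed doublets 0 (37 unadjusted) and thinning to 1000 UMIs 0 of 506 tested (17 unadjusted). Calf paired the sums, as both came from the same animal. CD74 did not pass with DESeq2 (4.40, adjusted p = 0.162), without the block (4.00, adjusted p = 0.859 by edgeR) or without doublets. Chosen after seeing the data, and lowering the minimum to 1 cell, requiring CD3E gave 1 lower gene and requiring 2 homolog UMIs gave 4. Leaving out the 3 barcodes with over 10 CD74 UMIs, also chosen after seeing the data and after the count of 1 was known, gave 16 genes, 6 higher and 10 lower, 13 of them in the same direction in both calves, with FCER1G at 4.11 and CD8A at -4.51. One of these barcodes held 39.3% of the UMIs of calf 2's cells. The count ran from 0 to 16, so these genes are not counted as changed. A minimum of 10 cells, and CD3E or 2 homolog UMIs at the minimum of 5 cells, left 1 calf and were not run, and leaving out a calf left no residual degrees of freedom.

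With 7 cells outside calf 3, the values describe 1 animal. At these depths a gene missing from a cell is not shown to be absent.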
